A study of Mus musculus with 4 samples.

Results

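The 12/15-lipoxygenase family of the mouse comprises Alox15, Alox12, Alox12e, Alox12b, Alox8 and Aloxe3. Its 6 genes were taken by their gene names in the scanner files and are represented by 8 of the 39429 probes on the array, or 6 of 31123 genes. They were measured in RNA from whole mouse lung on 4 Agilent 1-colour arrays, 1 for each combination of genotype label and treatment, and each array received RNA pooled from 4 samples. The groups were antigen-challenged Pla2g3-/- lung, antigen-challenged Pla2g3+/+ lung, control Pla2g3-/- lung and control Pla2g3+/+ lung. Pla2g3 encodes group III secreted phospholipase A2. Per the labels, mice received 10 µg of ovalbumin with 1.3 mg of alum on days 0 and 14, breathed a 1% ovalbumin aerosol for 30 min on each of days 26, 27 and 28, and gave lungs 48 h later. The labels attach that protocol to the control samples too and do not say how their handling differed. Strain, sex and age are not given there either.

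Lipoxygenases insert molecular oxygen into polyunsaturated fatty acids such as arachidonic acid and linoleic acid, which yields hydroperoxides named for the carbon that is oxygenated. Mouse Alox15 encodes the leukocyte-type 12/15-lipoxygenase, an enzyme of eosinophils and resident macrophages that also acts on fatty acids still held in membrane phospholipids. In human monocytes and airway epithelium the orthologous gene is induced by the type 2 cytokines IL-4 and IL-13. The other members serve mainly platelets (Alox12) and stratified epithelium such as skin (Alox12e, Alox12b, Alox8 and Aloxe3).

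Some properties of the series touch every value below. The 4 columns of the authors' value table did not follow the scanner files that bear the same names (r between 0.915 and 0.923 across probes, against 0.915 to 0.922 for columns of other names, and at least 0.986 within a source). Every result is therefore given for the value table and for the scanner files as separate sources, and no level is set across them. Pla2g3 itself went against the genotype labels. By the value table it was 25.4-fold higher in the challenged array labelled knockout than in the challenged array labelled wild type, and 22.1-fold higher in the control pair. The scanner files gave a 14.9-fold difference the same way in the challenged pair and 9.14-fold in the control pair. These values are of its brighter probe. The second Pla2g3 probe was also higher in the KO-labelled array, 14.8-fold in the challenged and 16.2-fold in the control pair of the value table, and 23.5-fold and 4.35-fold in the scanner files. No source used here says whether either probe lies in the deleted stretch, and the arrays are called KO-labelled and WT-labelled throughout. Alveolar markers, the check of the labelled tissue, were at a summed level of 316 to 336 in the value table and of 58.2 to 65.2 in the scanner files (in units of each array's 75th percentile). Of these markers, Cldn18 and Rtkn2 were above background on some but not all scanner arrays. Ager, the marker of alveolar type 1 cells, had log2 levels between 3.6 and 3.73 in the value table and of -5.34 to -4.84 in the scanner files. Sftpc, the surfactant protein of type 2 cells, had 6.92 to 7.04 and -1.33 to -0.26. Other alveolar markers were above the 75th percentile in the scanner files. Sftpa1 had 4.47 to 5.09 there, Abca3 4.10 to 4.23 and Lamp3 2.20 to 2.44. Hopx had 2.15 to 2.66 and Sftpb 0.58 to 2.56, while Slc34a2 was below it at -4.31 to -3.11. Endothelial markers summed to 74.6 to 79.2 in the value table and 3.57 to 4.69 in the scanner files, and basal epithelial markers to 2.54 to 3.36 and 110 to 139. By Ager, Sftpc and the endothelial and basal sums, the scanner files go against the label of whole lung more than the value table does. Their alveolar markers were mixed, and the cause was not tested.

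The probes that carry these measurements are 60 bases long and show which transcript each value reads. The 3 full probes printed here come from inside their transcripts, and the 30 bases shown for Alox12e open a probe that lies near the end of its transcript. Capitals mark the longest run that a probe shares with any other of the 8 probes.
Alox15: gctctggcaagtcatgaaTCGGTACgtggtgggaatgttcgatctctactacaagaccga
Alox12b: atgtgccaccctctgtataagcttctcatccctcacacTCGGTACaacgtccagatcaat
Alox12: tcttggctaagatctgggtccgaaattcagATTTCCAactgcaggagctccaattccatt
Alox12e: caactctatgatatgtgcttgtttagtctt
The Alox15 probe starts at base 1426 of its transcript, the Alox12b probe at base 1429, this Alox12 probe at base 1090 and the Alox12e probe at base 2207. The values of Alox12 below are those of its other probe, at base 2173, unless the probe at base 1090 is named. No run of more than 7 bases was shared between any pair of the 8 probes, and each sequence occurred once among all probes of the array.

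All 6 genes lie on chromosome 11. The scanner files place the Alox12e probe at chr11:70129157-70129216 and the Alox12 probes at chr11:70055715-70055774 and chr11:70063629-70063688, all on the minus strand of mm9. The Aloxe3 probe lies at chr11:68962557-68962616 and 1 Alox12b probe at chr11:68983186-68983245, both on the plus strand, and the Alox8 probe at chr11:68997387-68997446 on the minus strand. No position was used here for the Alox15 probe and the other Alox12b probe. In the gene order of GRCm38.p6, Alox12, Alox12e and Alox15 follow one another with 0 protein-coding genes between them, and so do Aloxe3, Alox12b and Alox8. The groups are separated by 64 protein-coding genes.

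Alox15 and Alox12e had higher signals after antigen challenge in both genotype labels and in both sources, while the other measured members stayed within 1.5-fold of their controls. By the value table Alox15 was 8.76-fold higher in the KO-labelled pair and 2.90-fold higher in the WT-labelled pair, and Alox12e was 5.31-fold and 3.0-fold higher. By the scanner files Alox12e was 5.84-fold higher in the KO-labelled pair and 4.11-fold higher in the WT-labelled pair, and for Alox15 the same folds were 1.82 and 1.34. With 1 array per group these differences have no replicate check, and in RNA from whole lung more cells of a type and more RNA per cell cannot be told apart.

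In the value table Alox15 had log2 levels of -2.28 and -3.48 on the KO-labelled and WT-labelled challenged arrays, against -5.41 and -5.02 on the KO-labelled and WT-labelled control arrays. Both challenged arrays lay above both controls. The order was KO-labelled challenged, WT-labelled challenged, WT-labelled control and KO-labelled control, and neighbours in it differed by at least 0.39. Scanner levels are log2 intensities relative to the array's 75th percentile. Here Alox15 had 1.25 and 0.67 on the KO-labelled and WT-labelled challenged arrays, against 0.38 and 0.25 on the control arrays of the same labels. The challenged arrays again lay above the controls, by 0.86 in the KO-labelled pair and 0.43 in the WT-labelled pair. Agilent's own error of such a difference was 0.20, a reading error that leaves out how mice vary. The scanner control arrays differed from each other by 0.14, less than that error.

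Alox12e, the epidermal-type 12-lipoxygenase of the mouse, had log2 levels in the value table of -2.50 and -3.34 on the KO-labelled and WT-labelled challenged arrays, against -4.91 and -4.92 on the control arrays of the same labels. The controls were 0.01 apart, and the challenged arrays stood 2.41 and 1.58 above them. Its scanner levels were 4.15 and 3.71 on the challenged arrays, against 1.60 and 1.67 on the control arrays. The differences of 2.55 in the KO-labelled pair and 2.04 in the WT-labelled pair were both larger than the reading error of 0.20, and the 2 controls differed by less than it.

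The platelet-type member, Alox12, has a probe at base 2173 of its transcript and another at base 1090, and the brighter one (base 2173) represents the gene. Its log2 levels in the value table were -2.09 and -2.14 on the KO-labelled and WT-labelled challenged arrays, against -1.76 and -1.93 on the control arrays. Both challenged arrays were thus the lower ones, by 0.32 and 0.21. Its 4 scanner levels lay between -0.22 and -0.14, and no pair differed beyond the reading error. The probe at base 1090 read challenge differences of -0.44 in the KO-labelled pair and -0.29 in the WT-labelled pair of the value table, but 0.23 and 0.51 in the scanner files. The scanner readings of the 2 probes therefore disagreed for the WT-labelled pair, where the brighter probe read 0.02.

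Alox12b, the 12R-lipoxygenase, oxygenates ceramide-bound linoleate in the skin barrier, and Aloxe3 converts the resulting hydroperoxide further. Alox12b had log2 levels in the value table of -3.50 and -4.08 on the KO-labelled and WT-labelled challenged arrays, against -3.79 and -3.93 on the control arrays of the same labels. Aloxe3 had -3.97 and -4.40 on the challenged arrays, against -3.82 and -4.36 on the control arrays. For Aloxe3 both KO-labelled arrays exceeded both WT-labelled arrays in the value table, and challenge moved the level by no more than 0.15.

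On the scanner scale Aloxe3 had log2 levels of -2.71 and -2.49 on the KO-labelled and WT-labelled challenged arrays, against -2.20 and -2.24 on the control arrays. Both challenged arrays were the lower ones, by 0.51 and 0.25, and the 2 controls differed by less than the reading error. Alox12b had scanner levels of -3.22, -3.27, -3.28 and -2.99 on the KO-labelled challenged, WT-labelled challenged, KO-labelled control and WT-labelled control arrays, and only the WT-labelled control stood apart by more than that error. The other Alox12b probe, at base 2239, read a genotype difference of -0.44 between the KO-labelled and WT-labelled controls in the value table, where the brighter probe read 0.14.

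Alox8, the mouse 8S-lipoxygenase of skin, was not above background on any array of either source. Its signal was between 0.90 and 0.96 times the median of the array's negative control spots, with a log2 reading error of 1.39 to 1.44 in the scanner files. The probes that represent the other 5 members were at least 37.2 times that median in the value table and at least 81.0 times in the scanner files. Alox8 has therefore no fold change, and 5 of the 6 members entered each comparison.

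**Figure D1:**
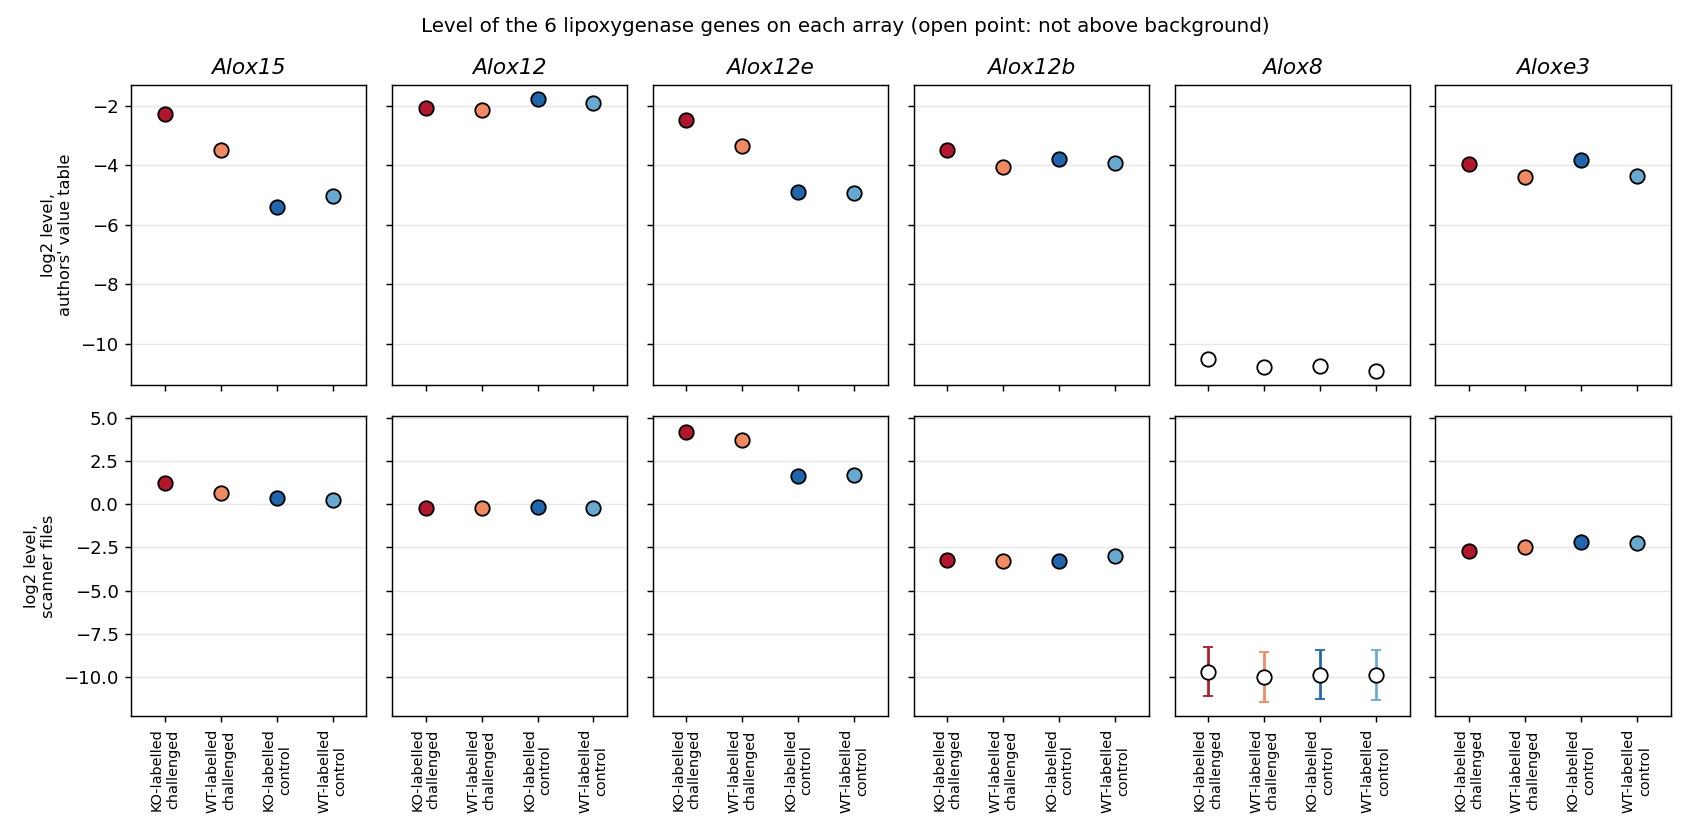
Log2 level of each of the 6 lipoxygenase genes (columns) on each array, from the authors' value table (top row) and from the scanner files relative to the array's 75th percentile (bottom row). Points are single arrays, bars in the bottom row are Agilent's spot error, and open points are not above background. Alox15 and Alox12e sit higher on the 2 challenged arrays in both sources, and Alox8 is at background throughout.

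Counted at 2-fold or more, 2 of 5 measured members were higher in the KO-labelled challenged array of the value table, where 2.67% of all genes were, and 2 of 5 in the WT-labelled pair, where 1.9% were. Of the 5 members, 1 was higher in the KO-labelled pair of the scanner files, against 3.86% of all genes, and 1 of 5 in the WT-labelled pair, against 1.89%. No member (0 of 5) was at least 2-fold lower in any of these pairs. Of all genes, 0.781% and 0.65% were lower in the KO-labelled and WT-labelled pairs of the value table, and 3.37% and 1.69% in those of the scanner files. Members called higher were Alox15 and Alox12e in the value table and Alox12e alone in the scanner files. The median difference of the 5 members was small, between -0.04 and 0.29 in the 4 pairs, beside all-gene medians between -0.06 and 0.02.

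Averaged over the genotype labels, the challenge effect on the log2 scale in the value table was 2.33 (SE 0.51) for Alox15 and 1.997 (SE 0.27) for Alox12e. These were the 26th and 51st highest of 26069 genes. The scanner files gave 2.29 (SE 0.19) for Alox12e, the 67th highest of 26371 genes, and 0.64 (SE 0.17) for Alox15, which ranked 1077th. The averaged effect of the other 3 measured members lay between -0.27 and 0.07 in the value table and between -0.38 and -0.03 in the scanner files. The errors come from limma's additive fit of genotype and treatment, which leaves 1 degree of freedom per gene and reads the disagreement between the 2 labels as spread. limma combines that spread with a prior spread drawn from all genes. The prior counts for 1.53 degrees of freedom in the value table and 1.74 in the scanner files.

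None of these effects passed an adjusted p of 0.05 in limma. The Benjamini-Hochberg adjusted p was 0.566 for both Alox15 and Alox12e in the value table and 0.514 for both in the scanner files. The unadjusted values from limma were 0.0276 for Alox15 and 0.0088 for Alox12e in the value table, and 0.0388 and 0.0018 in the scanner files. Across all genes 0 passed after adjustment in either source, while 8.79% of value table genes and 9.56% of scanner genes had an unadjusted p under 0.05. In the averaged effect, 2 of 5 members were at least 2-fold higher in the value table, against 1.56% of genes, and 1 of 5 in the scanner files, against 1.84%. None of the 5 was 2-fold lower, where 0.322% and 1.49% of genes were.

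**Figure D2:**
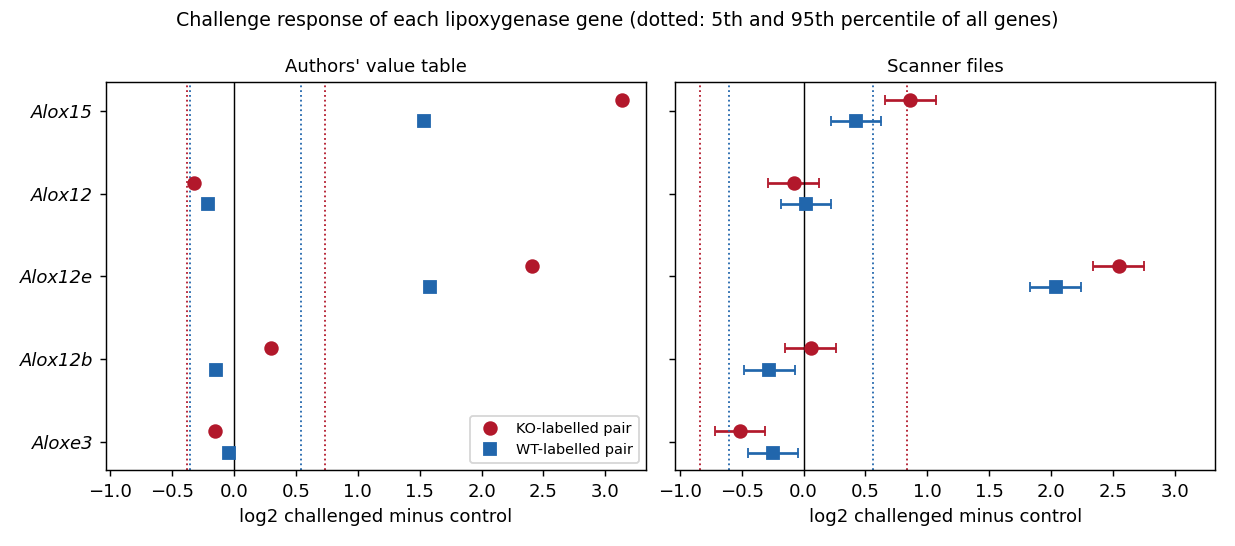
Log2 difference of challenged minus control for the 5 measured members, in the KO-labelled pair (circles) and the WT-labelled pair (squares) of the value table (left) and the scanner files (right, bars show Agilent's spot error of the difference). Dotted lines are the 5th and 95th percentile of all genes in the pair of the same colour. Alox15 and Alox12e lie beyond the 95th percentile in both pairs of the value table, as Alox12e does in the scanner files, where Alox15 in the KO-labelled pair (0.86) also lies just beyond it (0.84).

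The widest difference between the genotype labels among the members was that of Alox15 in the challenged arrays of the value table. Alox15 was 2.30-fold higher in the KO-labelled than in the WT-labelled challenged array, which made it 1 of 5 members past 2-fold where 1.76% of genes were higher. No member was 2-fold lower there, as 2.5% of genes were. In the controls it was 1.31-fold lower in the KO-labelled array. Alox12e was 1.79-fold higher in the KO-labelled challenged array and within 1.01-fold in the controls. In the scanner files the KO-labelled challenged array exceeded the WT-labelled one 1.49-fold for Alox15 and 1.36-fold for Alox12e, and 0 of 5 members reached 2-fold, where 3.87% of genes were higher and 2.58% lower. In the control pair 0 of 5 members reached 2-fold in either source, against 1.56% of genes higher and 2.38% lower in the value table, and 3.22% higher and 1.9% lower in the scanner files.

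The challenge response was larger in the KO-labelled pair than in the WT-labelled pair for both genes and in both sources. The difference of the responses on the log2 scale was 1.60 for Alox15 and 0.82 for Alox12e in the value table. It was 0.44 and 0.51 in the scanner files, where its reading error was 0.29. At 2-fold, 1 of 5 members (Alox15 in the value table) was called higher, where 2.06% of genes were higher and 1.96% lower. The scanner files had 0 of 5, beside 4.24% of genes higher and 3.74% lower. These differences rest on single arrays and were not tested. Averaged over treatments, 0 of 5 members differed 2-fold between the labels in either source, beside 1.26% of genes higher and 1.99% lower in the value table, and 2.68% and 1.04% in the scanner files. This averaged genotype effect passed no adjusted p of 0.05 for any member in limma. The smallest was that of Aloxe3 in the value table, with a log2 effect of 0.48 (SE 0.08), an adjusted p of 0.265 and an unadjusted p of 0.0139. Without adjustment 13.8% of value table genes and 10.7% of scanner genes were under 0.05 for this effect, and 0 of all genes passed after adjustment. With a variance trend in limma 1042 value table genes passed, and 271 did when only genes above background on all 4 arrays were tested, with 0 members in either.

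Genes with a pattern most like these members over the 4 arrays were ranked by the root mean square difference of log2 levels, each gene centred on its mean. Mrgprg, a Mas-related G protein-coupled receptor, was the closest to both in the value table, at 0.23 from Alox15 and 0.10 from Alox12e, among 16371 genes. Alox12e was the second closest to Alox15, at 0.26, where the median gene was at 1.25. Cebpe, a transcription factor of granulocyte maturation, was the third closest to Alox15, also at 0.26. After Mrgprg, the closest to Alox12e were Fam3b, a secreted cytokine-like factor, at 0.12, and Il13, the type 2 cytokine, at 0.16. These are descriptions over 4 arrays, on which many genes with a challenge response share a shape.

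Il13 had log2 levels in the value table of -4.21 and -5.18 on the KO-labelled and WT-labelled challenged arrays, against -6.37 and -6.77 on the control arrays. On the scanner arrays it had -3.03 and -5.49 on the challenged arrays and was not above background on either control array. It was thus detected on every challenged array in both sources, and the KO-labelled one was the higher. Other genes came closest in the scanner files. For Alox12e they were Chil1, a chitinase-like protein, at 0.10, Saa1, an acute phase protein, at 0.17, and Myl1, a muscle myosin light chain, at 0.25. For Alox15 they were Lratd1, Casp4, an inflammatory caspase, and Sgms1, a sphingomyelin synthase, all within 0.04.

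**Figure D3:**
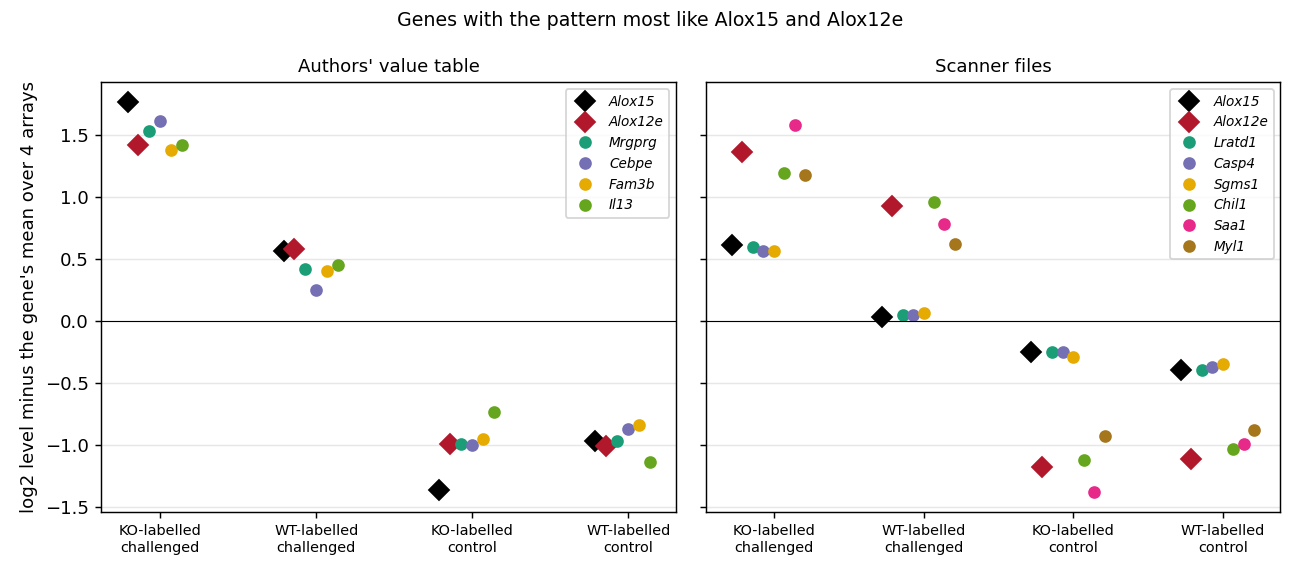
Log2 level minus the gene's own mean over the 4 arrays, for Alox15 and Alox12e (diamonds) and the genes with the most similar pattern (circles), in the value table (left) and the scanner files (right). In the value table Alox12e, Mrgprg, Cebpe, Fam3b and Il13 lie on the same side of 0 as Alox15 on all 4 arrays, and in the scanner files Alox15 has a smaller range than Alox12e.

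The pathway and marker lists are counted in the averaged challenge effect unless a pair is named. In that effect 1.56% of all genes were at least 2-fold higher and 0.322% lower in the value table. In the scanner files 1.84% were higher and 1.49% lower. Every list count below that names no pair is to be read beside these shares. Among inducers of Alox15 in the IL-4 and IL-13 pathway, 1 of 12 measured genes was at least 2-fold higher in the value table, beside 1.56% of all genes, and 3 of 12 in the scanner files, beside 1.84%, and 0 were lower in either. Within pairs of the value table, 3 of 12 were higher in the KO-labelled and 1 of 12 in the WT-labelled pair. Of all genes, 2.67% and 1.9% were higher in these pairs. In the KO-labelled and WT-labelled scanner pairs 4 and 2 of 12 were higher, beside 3.86% and 1.89% of all genes. Il13 had an averaged challenge effect of 1.87, Il4 of 0.69 and the decoy receptor Il13ra2 of 0.68 in the value table. The receptor chain Il4ra and the signal transducer Stat6 had -0.11 and -0.16. The 3 in the scanner files were Il13, Il4, with 1.27, and the feedback inhibitor Socs1, with 1.03. Il4ra had 0.68 in the scanner files, from 1.27 in the KO-labelled and 0.08 in the WT-labelled pair. Stat6 had 0.09 and Il2rg -0.79 there. The list's median was -0.01 in the value table and 0.26 in the scanner files, beside 0.02 and -0.04 over all genes.

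Of the enzymes that handle the substrates and hydroperoxides of lipoxygenases, 0 of 14 reached 2-fold in either direction in the averaged effect of either source. Gpx4, the glutathione peroxidase that reduces phospholipid hydroperoxides, had an averaged effect of -0.07 in the value table and 0.09 in the scanner files. Acsl4, which loads arachidonate for insertion into phospholipids, had 0.04 and 0.73, and Hpgd, which oxidises the hydroxyl of eicosanoids, had -0.12 and -0.85. Within pairs, Hpgd was 2-fold lower in the KO-labelled pair of the scanner files, at -1.001.

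Of the receptors of 12/15-lipoxygenase products, 1 of 13 was higher in the value table and 1 of 12 in the scanner files, and 0 were lower. They were Gpr37, which was above background on 3 of 4 arrays, in the value table and Fpr2, the lipoxin and formyl peptide receptor, in the scanner files, with 2.23. Within scanner pairs Fpr2 had 3.73 in the KO-labelled and 0.74 in the WT-labelled pair. Its averaged effect in the value table was 0.16. Gpr31b, the mouse counterpart of a receptor for 12-HETE, had an averaged effect of -0.09 in the value table and 0.52 in the scanner files. Its row and that of Gpr31c hold the same values, so the 13 and the 12 count this gene under both names.

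The other arachidonate oxygenases had 0 of 6 genes at 2-fold in the value table and 1 of 6 in the scanner files, Ptgs2 (cyclooxygenase-2) with 1.59. Ptgs2 had 2.98 in the KO-labelled and 0.20 in the WT-labelled scanner pair. Alox5, the leukotriene-forming 5-lipoxygenase, had averaged effects of -0.03 in the value table and 0.37 in the scanner files. In the epidermal pathway of Alox12b and Aloxe3, 0 of 10 measured genes reached 2-fold in the averaged effect of the value table and 0 of 11 in that of the scanner files. Tgm1, the transglutaminase of the cornified envelope, had 0.35 and 0.98, with 1.40 in the KO-labelled scanner pair, and Abca12, the lipid transporter of keratinocytes, was not above background on any array of the value table.

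Markers of cells known to hold these enzymes were set beside them in each source. Of 9 eosinophil markers above background on at least 1 array of the value table, 3 were at least 2-fold higher in the averaged effect, with a list median of 0.56. Their summed level was 43.5 and 35.3 on the KO-labelled and WT-labelled challenged arrays, against 25.5 and 29.2 on the control arrays. Cebpe had an averaged effect of 1.86, and Prg2, the eosinophil major basic protein, of 1.32, from levels of -1.87, -2.10, -4.54 and -2.09 on the KO-labelled challenged, WT-labelled challenged, KO-labelled control and WT-labelled control arrays, so only the KO-labelled control was low. Epx and Prg3, defining eosinophil markers, were not above background on any scanner array, 0 of 7 markers were higher and 1 was lower. The lower one was Prg2, above background on 3 of 4 scanner arrays, with an averaged effect of -1.15. It had -1.04 in the KO-labelled and -1.25 in the WT-labelled scanner pair, so its direction was opposed between the sources. The summed scanner level of the list was 0.80 and 0.62 on the KO-labelled and WT-labelled challenged arrays, against 0.68 and 0.73 on the control arrays. The part of eosinophils in the Alox15 signal was not tested.

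Among markers of alternatively activated macrophages, 5 of 10 were higher in the value table and 4 of 10 in the scanner files, and 0 were lower. Their summed level in the value table was 239 and 233 on the KO-labelled and WT-labelled challenged arrays, against 179 and 165 on the control arrays. The scanner sums were 112 and 89.5, against 45.9 and 30.5. Ccl24 had 4.15 and Cd209e 3.48 in the value table, and in the scanner files Retnla had 2.60. The scanner effect of Ccl24 was 0.007, from 1.37 in the KO-labelled and -1.35 in the WT-labelled pair. The list's scanner median was 1.02 in the KO-labelled pair, with 9 of 10 markers above 0, and -0.16 in the WT-labelled pair, with 4 of 10. The scanner response was larger by at least 2-fold in the KO-labelled pair for 6 of 10 markers and smaller for 2. Those 2 were Chil3, with 0.39 in the KO-labelled and 2.48 in the WT-labelled pair, and Chil4, with 0.09 and 3.56. Of the peritoneal-type resident macrophages, known for high Alox15, 2 of 8 markers were higher in the value table (namely Serpinb2 with 2.16 and Prg4 with 1.51) and 0 of 8 in the scanner files. Of the 8, 5 were above 0 in the value table and 3 in the scanner files. In the KO-labelled scanner pair the median was 0.22, with 2 higher and 1 lower, beside 3.86% and 3.37% of all genes. In the WT-labelled pair it was -0.47, with 0 and 2, beside 1.89% and 1.69%. The defining markers Gata6, Timd4 and Icam2 had averaged scanner effects of -0.24, -0.24 and -0.93. Timd4 had 1.24 in the KO-labelled and -1.71 in the WT-labelled pair. The part of these cells in the Alox15 signal was not tested.

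Goblet cell markers were higher beside Alox12e and Alox15 in both sources, with 8 of 8 at least 2-fold higher in the value table and 3 of 8 in the scanner files. Their summed level was 114 and 86.1 on the KO-labelled and WT-labelled challenged arrays of the value table, against 23.7 and 15.03 on the controls of the same labels. The scanner sums were 309 and 262 on the challenged arrays, against 209 and 147 on the control arrays. Neutrophil markers had 0 of 7 higher in the value table and 6 of 7 in the scanner files, where their median was 2.24. Their summed scanner level was 89.2 and 63.3 on the challenged arrays, against 45.9 and 58.2 on the control arrays. Csf3r, the brightest marker on the control arrays at 5.22 and 5.74, weighs most in those control sums and had an averaged effect of -0.18. By count, 6 of 7 markers were higher in the KO-labelled and 5 of 7 in the WT-labelled scanner pair, beside 3.86% and 1.89% of all genes. Between the controls the median of the 7 was 0.71 higher in the KO-labelled array, though its sum was lower. The part of these cells in the Alox12e signal was not tested.

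Platelet markers, set beside Alox12, had 0 of 10 at 2-fold in either source, with a median of -0.18 in the value table, where Alox12 had -0.27, and of 0.31 in the scanner files, where it had -0.03. Markers of cornified squamous epithelium, set beside the skin members, had 1 of 8 higher in the value table (Dsg1a, above background on 1 array) and 0 of 8 in the scanner files, and basal epithelium had 0 of 5 and 1 of 6, with 1 lower in the scanner files. Krt5, the basal keratin, had scanner levels between 5.43 and 5.68 and value table levels between -4.24 and -3.82.

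Immature thymocyte markers stood apart on 1 scanner array. Their summed level was 25.9 on the KO-labelled control, against 3.11 to 3.95 on the other 3, and 7 of 8 were lower in the averaged effect. The scanner level of Alox15 on that array was 0.14 above the WT-labelled control and that of Alox12e 0.07 below it, both within the reading error. That array is the reference of the KO-labelled scanner pair and enters the averaged effects. What its thymocyte signal does to them was not tested. Rag1 and Rag2 were not above background on any array of the value table.

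Most genes that flank the lipoxygenases stayed within 2-fold, as most genes on the array did. Of 26 genes with a probe within 250 kb of Alox12 and Alox12e, 1 was at least 2-fold higher and 1 lower in the value table, and 0 and 1 in the scanner files. The higher one was Clec10a, a macrophage lectin, with an averaged effect of 1.096, and the lower one Asgr1, the hepatic asialoglycoprotein receptor, with -1.27 in the value table and -1.02 in the scanner files. The median of the 26 genes was 0.00 in the value table and -0.01 in the scanner files. Around Aloxe3, Alox12b and Alox8, 0 of 31 tested genes reached 2-fold in either source. Of all genes, 1.56% were at least 2-fold higher and 0.322% lower in the averaged effect of the value table. In the scanner files 1.84% were higher and 1.49% lower.

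**Figure D4:**
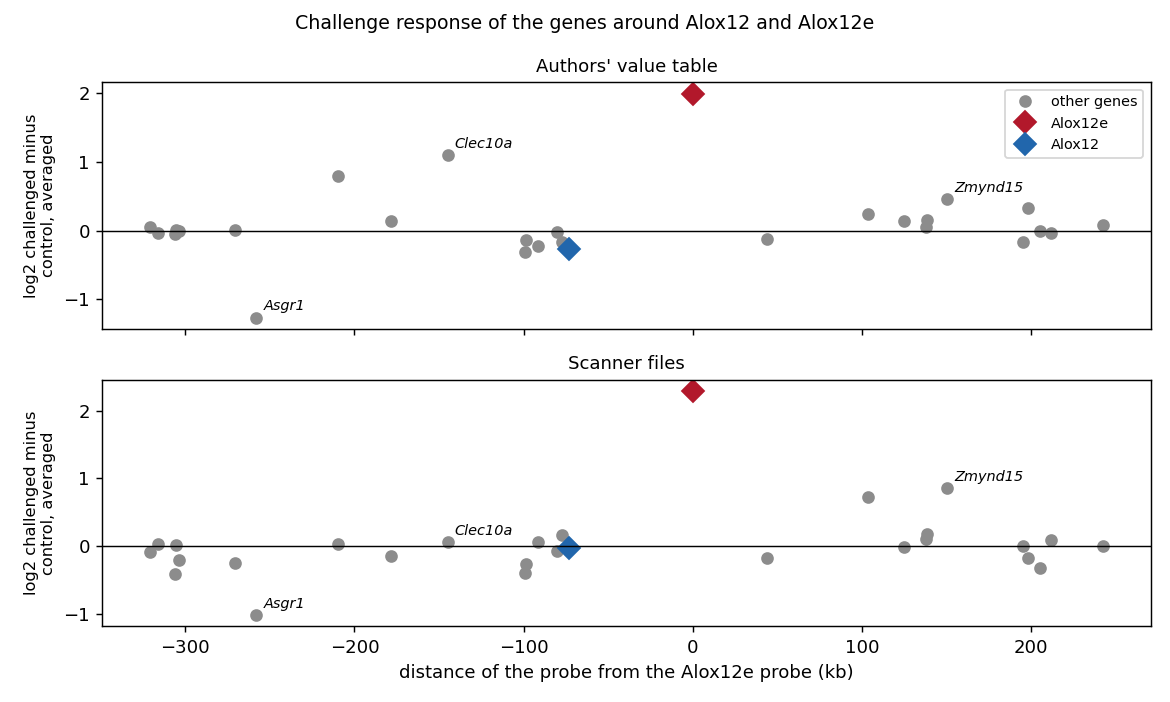
Averaged challenge effect (log2) of the genes around Alox12 and Alox12e against the distance of their probe from the Alox12e probe in kb, in the value table (top) and the scanner files (bottom). Alox12e is at 1.997 and 2.29, Alox12 at -0.27 and -0.03, and most other genes lie near 0.

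Alox12 and Alox12e are neighbours that differed in their response, and their promoters, the 250 bases before the RefSeq start in GRCm38.p6, are shown for that reason. Both lie on the minus strand, at chr11:70322531-70322780 for Alox12e and chr11:70255371-70255620 for Alox12. Capitals mark the Sp1 motif.
Alox12e: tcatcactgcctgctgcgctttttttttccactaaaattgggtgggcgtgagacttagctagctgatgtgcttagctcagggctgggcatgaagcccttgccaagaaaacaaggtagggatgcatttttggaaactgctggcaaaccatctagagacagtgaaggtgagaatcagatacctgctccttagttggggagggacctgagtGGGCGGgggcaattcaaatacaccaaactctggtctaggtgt
Alox12: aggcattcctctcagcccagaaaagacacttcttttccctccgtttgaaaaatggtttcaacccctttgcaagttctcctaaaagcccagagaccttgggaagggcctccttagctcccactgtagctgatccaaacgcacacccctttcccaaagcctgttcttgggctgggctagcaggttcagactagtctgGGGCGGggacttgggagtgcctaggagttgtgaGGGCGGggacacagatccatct
Both strands were searched for the motif of STAT6, the factor activated by IL-4 and IL-13, and for that of other STAT factors, TTCNNNGAA. The search also took AGATAA (bound by GATA factors), then TGACTCA (bound by AP-1), then GGGCGG (bound by Sp1) and TATAAA (the TATA box). None of these motifs contains another. Of the 6 members 4 had a RefSeq promoter in the table used, and these were Alox12, Alox12e, Alox12b and Alox8. The Sp1 motif occurred in all 4, with 1 match in Alox12e, 1 in Alox8, 2 in Alox12 and 3 in Alox12b, and in 32.7% of all 32851 promoter windows. The other motifs had 0 matches in the 4 windows. Of all windows 5.85% held the STAT6 motif, 7.02% that of other STAT factors, 9.99% the GATA motif, 4.46% the AP-1 motif and 12.4% the TATA box.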

How the data were processed

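Per the file headers, the deposited scanner files give the intensity of each spot as read by Agilent Feature Extraction 11.5.1.1, a version also named in the submitters' processing notes, with probe coordinates on mm9 and Agilent's above-background call as a flag of another kind (0 or 1). The value table deposited by the authors gives 1 linear signal for each probe and array; its making is not described in any source used here. Its 75th percentile is about 1 in each column, and it was taken to log2 with nothing subtracted. Scanner intensities were taken to log2 and each array's 75th percentile was subtracted. Table probes counted as above background over 5 times the median of 153 negative controls, which gave the same call as the flag for 99.2% of scanner spots. A gene's brightest probe by mean level stood for it, and 19 uneven probes were left out of the scanner files.

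Groups came from the sample titles. For pairs of arrays a gene counted as different at 2-fold if above background on at least 1 array, with an array not above background set at the higher of its own value and the lowest value above background. Averaged effects were fitted with limma 3.58.1 in R 4.3.3 on all genes above background on at least 1 array, with Benjamini-Hochberg adjustment. Precision is limited by the number of arrays, 1 per group. The members, the 5 pathway lists and 13 marker lists, and the tests were chosen with earlier results of these data known. Genes named from a list were its 4 (pathway) or 3 (marker) largest averaged effects, its defining markers, or genes chosen after their values were seen. The 3 genes most like each member and up to 4 neighbours were also named. Values were scaled and tested only within a source. Protein sequences were not analysed here. Alternatives were quantile normalization, median scaling, normexp with an offset of 50, the mean of a gene's probes, other filters, 1.5- and 3-fold rules, and limma with a variance trend or robust eBayes.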

Additional observations from a re-analysis of the deposited data

Results flagged for a closer look

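Some values moved in opposite directions in the groups compared. Each rests on single arrays, and the difference was not tested.

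In the value table the genotype difference of Alox15 (KO-labelled minus WT-labelled, log2) was 1.20 in the challenged arrays and -0.39 in the controls. This is the widest gap of those listed here. In the scanner files the genotype difference of Alox12e was 0.44 in the challenged arrays and -0.066 in the controls, the second being under the reading error of 0.20.

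The signs of the Alox12b response were opposed in both sources. Challenged minus control was 0.29 in the KO-labelled and -0.14 in the WT-labelled pair of the value table, and 0.059 and -0.28 in the scanner files. Its scanner genotype difference was 0.051 in the challenged arrays and -0.29 in the controls. Both positive scanner values are under the reading error of 0.21, and the other Alox12b probe (base 2239) read -0.016 in the KO-labelled and -0.17 in the WT-labelled pair of the scanner files, with the same sign. For Aloxe3 the scanner genotype difference was -0.23 in the challenged arrays and 0.043 in the controls, the second also under that error. For Alox12 all the opposed scanner values were under the reading error: challenged minus control was -0.081 in the KO-labelled and 0.019 in the WT-labelled pair, and the genotype difference was -0.020 in the challenged arrays and 0.080 in the controls.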

How the results depend on the processing

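Leaving out an array was not possible with 1 per group. No paired analysis was possible because each group has 1 array and the labels give no replicate numbers. Depth is limited by signal over background, which removed Alox8. Of the counts of members recomputed, those in the following sentences moved by over 1.5 times. At 1.5-fold, 2 members were higher in the KO-labelled pair of the scanner files, and 2 in the challenged KO-labelled against WT-labelled arrays of the value table. At the same fold, chosen for these effects after seeing the data, 2 members were higher in the averaged challenge effect of the scanner files, and 2 in the difference of responses of the value table. At 3-fold the value table counted 0 in that genotype comparison and 0 in the WT-labelled challenge pair, where Alox12e and Alox15 lay just under 3.0-fold and at 2.90-fold. With a variance trend in limma, 1 member passed an adjusted p of 0.05 for challenge in the value table, Alox12e at 0.0470, and so did 117 genes in all. For the genotype effect, with 0 genes in the value table otherwise, that trend gave 1042 genes and the filter on all 4 arrays 271. For challenge, 1 scanner gene passed with that trend and 1 with normexp, against 0 otherwise. Over the alternatives run, the averaged effect of Alox12e in the scanner files stayed between 2.26 and 2.34, and that of Alox15 between 0.64 and 0.69. The scanner effect of Alox12 changed sign, to 0.016 with median scaling and 0.17 with the mean of its probes. The other 209 recomputed counts kept within 1.5 times. The cause of these changes was not tested.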

Other observations

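Other cell types of the lung gave these counts in the averaged challenge effect. Of all genes, 1.56% were higher and 0.322% lower in the value table, and 1.84% and 1.49% in the scanner files. Markers of ciliated and club cells had 0 of 8 at least 2-fold higher or lower in either source, and endothelial markers 0 of 8. Within scanner pairs, 4 of 8 endothelial markers were higher in the KO-labelled challenge pair (median 0.85), and 4 of 8 were lower in the KO-labelled than in the WT-labelled control. Of all genes, 3.86% were higher in the first of these pairs and 1.9% lower in the second. Mast cell markers had 0 of 7 in either source. Alveolar markers had 0 of 10 in the value table, and 1 higher and 1 lower of 10 in the scanner files (Slc34a2 with 1.07 and Sftpb with -1.04).

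The members that challenge left within 1.5-fold had close companions on the arrays. In the value table Fzd1, a Wnt receptor, lay at a root mean square difference of 0.013 from Alox12, Ankk1 at 0.017 from Alox12b, and Itpka at 0.02 from Aloxe3. In the scanner files the closest to Aloxe3 was Fech, the ferrochelatase of haem synthesis, at 0.005. Small ranges leave many genes near such a pattern, and the median gene lay at 0.17 to 0.26 from these members in the value table.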
